A study of Arabidopsis thaliana with 6 samples.

Results

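Expansins are small secreted proteins that loosen plant cell walls without cutting their polymers. They act best in acid walls, where plasma membrane proton pumps lower the pH, and so let turgor drive cell enlargement, a process known as acid growth. The alpha-expansins form the largest branch of the family in Arabidopsis, and members expressed in leaves are known for their part in leaf growth and in the movement of stomatal guard cells. The 10 genes described here are EXPA1, EXPA3, EXPA4, EXPA5, EXPA6, EXPA8, EXPA10, EXPA11, EXPA15 and EXPA16, chosen by name and locus. They are 10 of 33602 genes in the count table, and 16 further alpha-expansin loci served for comparison.

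Transcripts were measured by mRNA sequencing in leaves of *Arabidopsis thaliana* cat2-2, a mutant of the leaf catalase CAT2 in the Columbia-0 ecotype, with the same genotype in both groups and no wild type among the samples. The high CO2 group (3 libraries, 0 h) came from 3-week-old plants kept at 3000 ppm CO2, an irradiance of 120 µmol m-2 s-1, air of 75% humidity and 21 °C with days of 16 h light and 8 h dark. The high light group (3 libraries) had then spent 3 h in another chamber with ambient air of 400 ppm CO2, 1200 µmol light (the labels give this irradiance per m and s), 55% humidity and 21 °C. Each library pooled middle-aged leaves of 15 plants, and the labels call the 3 repeats of the set-up biological. The 2 groups thus differed in gas, irradiance, humidity, chamber and hour of sampling at once, and the parts of these cannot be told apart. Libraries held 18047295 to 24149149 counts. The mutated gene CAT2 had 1760, 2427 and 1752 counts in high CO2 libraries and 724, 1010 and 928 after high light, which without a wild type does not check the mutation. The tissue matched its label: 5 mesophyll markers summed to 51059 to 74252 CPM in high CO2 and 22750.0 to 32772 CPM in high light (CPM, the depth-scaled count unit of edgeR), while 4 root markers had 1 count in all libraries together. Replicate 3 of both groups was set off from the other libraries along a second principal component with 4.90% of the variance.

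The coding sequences placed most of the 10 genes in 2 sets of relatives, without full separation. EXPA1, EXPA5, EXPA8, EXPA10 and EXPA15 shared 68.1% to 78.4% of aligned bases with each other. EXPA3, EXPA4, EXPA6 and EXPA16 shared 71.8% to 81.1%. Identity between these 2 sets was 64.0% to 70.4%, and EXPA11 reached at most 65.3% with any other member. EXPA8 shared 70.4% with EXPA16 of the other set, but 68.1% with EXPA5 and 70.2% with EXPA15 of its own. Only EXPA4 with EXPA16 (81.1%) and EXPA1 with EXPA10 (78.4%) were each other's closest member. Reads can be told apart at this distance, since a search for copies with 95% identity or more, covering 50% or more of the gene, found 0 for the 10, and none of the 10 shared exon bases with another annotated gene.

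The 250 bases before the annotated start of these closest pairs are shown because the 2 members of each pair had different calls (below). They are printed 5′ to 3′ on the strand of the gene, from the RefSeq TAIR10.1 assembly. Capitals mark E-boxes (CANNTG, either strand), the core bound by basic helix-loop-helix factors, and the TATA box sequence TATAAA (strand of the gene) at any position. EXPA1 lies at chr1:26141476-26141725 on the plus strand, EXPA10 at chr1:9259182-9259431 on the plus strand, EXPA4 at chr2:16545747-16545996 on the minus strand and EXPA16 at chr3:20576250-20576499 on the minus strand.
EXPA1: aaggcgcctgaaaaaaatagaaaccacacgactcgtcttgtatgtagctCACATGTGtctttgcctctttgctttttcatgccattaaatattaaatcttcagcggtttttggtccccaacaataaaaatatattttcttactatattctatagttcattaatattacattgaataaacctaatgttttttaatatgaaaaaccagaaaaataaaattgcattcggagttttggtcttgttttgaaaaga
EXPA10: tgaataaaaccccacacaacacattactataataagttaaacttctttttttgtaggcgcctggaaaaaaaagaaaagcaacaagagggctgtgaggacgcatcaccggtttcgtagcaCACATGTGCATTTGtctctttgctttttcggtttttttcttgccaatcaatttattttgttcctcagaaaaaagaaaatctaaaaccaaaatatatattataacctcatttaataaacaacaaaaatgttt
EXPA4: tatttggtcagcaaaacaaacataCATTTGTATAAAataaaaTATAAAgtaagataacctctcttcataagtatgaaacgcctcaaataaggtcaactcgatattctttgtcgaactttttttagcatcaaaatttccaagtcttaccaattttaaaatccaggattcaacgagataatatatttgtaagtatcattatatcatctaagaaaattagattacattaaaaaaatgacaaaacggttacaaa
EXPA16: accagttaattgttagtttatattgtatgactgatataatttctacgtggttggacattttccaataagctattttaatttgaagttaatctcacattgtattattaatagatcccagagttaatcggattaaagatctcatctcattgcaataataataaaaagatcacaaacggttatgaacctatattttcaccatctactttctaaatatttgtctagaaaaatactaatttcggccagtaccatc
The windows of EXPA1 and EXPA10 both held CACATGTG, an octamer picked after the windows had been seen, which 0.375% of 27443 windows of protein-coding genes hold. They also shared the run ctctttgctttttc of 14 bases, the longest among the 45 member pairs, whose median was 9 bases. EXPA4 and EXPA16 shared no run longer than 9 bases. An E-box lay in the windows of 7 of the 10 members and in 55.3% of all windows, and EXPA3, EXPA5 and EXPA16 had 0. TATAAA was found in 2 members, EXPA4 and EXPA5, and in 32.9% of all windows. The auxin response element TGTCTC was found on either strand in 3 members (EXPA5, EXPA6 and EXPA10) and in 10.9% of all windows. The G-box CACGTG was found in 0 members and in 6.49% of all windows. The CGTGCG form of the brassinosteroid response element was found in 0 members and in 1.57% of all windows. Both were searched on either strand. The CGTGTG form was not counted, and its reverse complement cacacg lies in the windows of EXPA1 and EXPA6. CACATG, a site of phytochrome-interacting factors and a form of the E-box, was found in 3 members (EXPA1, EXPA10 and EXPA11) and in 11.1% of windows.

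Most alpha-expansin transcripts were lower after the shift to high light. Of the 10 members, all of which passed the filter on low counts, 8 fell, EXPA16 rose and EXPA10 was not called (quasi-likelihood F test of edgeR, Benjamini-Hochberg adjusted p below 0.05 across 18504 genes). The same test called 60.8% of all tested genes, 30.4% as lower and 30.4% as higher in high light. That even split depends on scaling: 5616 genes fell and 5631 rose with TMM factors, against 7883 and 4386 with upper-quartile factors, under which 8 members again fell and 1 rose. The median log2 fold change, high light against high CO2, was -1.65 over the 10 members and -0.06 over all tested genes. The libraries of the groups did not overlap for 9 of the 10 members, against 67.2% of all tested genes. In bulk leaf RNA, fewer cells that express a gene and less RNA per cell cannot be told apart.

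**Figure D1:**
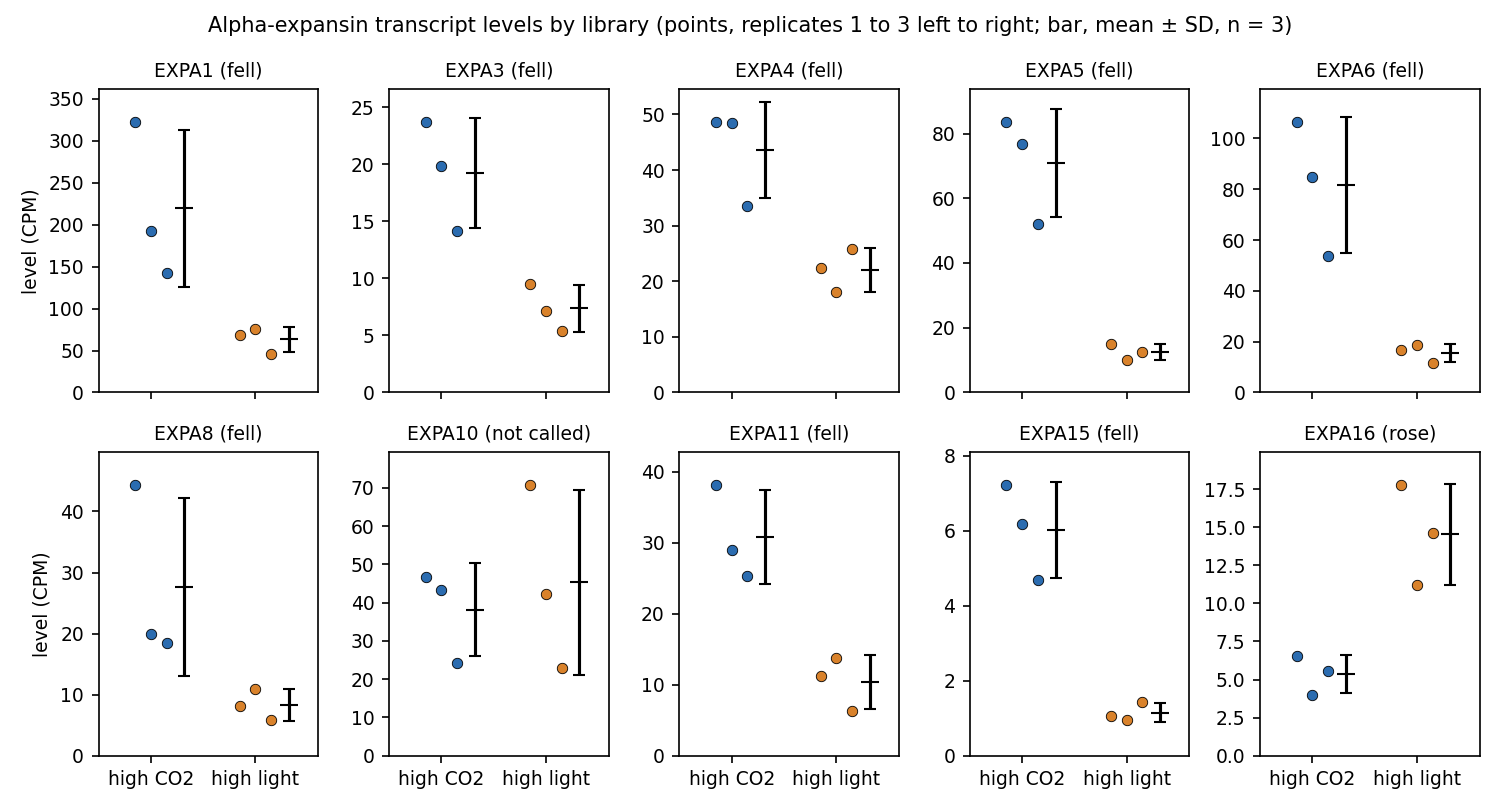
Levels of the 10 alpha-expansin transcripts in CPM (y axis, linear, one scale per gene) in the 3 high CO2 and 3 high light libraries. Points are libraries in the order of replicates 1 to 3, and bars are mean ± SD (n = 3). The groups overlap for EXPA10, and EXPA16 is higher in high light.

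EXPA1 (AT1G69530), known from guard cells, where altered levels change stomatal movement, was the most abundant member. It had 323, 192 and 143 CPM in high CO2 (6835, 4329 and 2736 counts) and 68.8, 75.1 and 46.2 CPM in high light. Every high light library lay below every high CO2 library, and high CO2 replicate 1 was well above the others of its group. The log2 fold change was -1.79 ± 0.31 (standard error of the fit; edgeR adjusted p = 0.00112), a 3.46-fold fall.

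EXPA10 (AT1G26770), known in leaf growth and in the base of the flower stalk, is the closest relative of EXPA1 and was not called. It had 46.8, 43.4 and 24.2 CPM in high CO2 and 70.8, 42.2 and 22.8 CPM in high light. High light replicates 2 and 3 lay within or below the high CO2 range, replicate 1 lay above it, and replicate 3 was the lowest library of each group. Its log2 fold change was 0.25 ± 0.39 (edgeR adjusted p = 0.596), with a 95% interval from -0.63 to 1.13, or 0.646-fold to 2.18-fold. The sign of this value was negative without high light replicate 1 (-0.23) and with upper-quartile scaling (-0.02).

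The other members of this set fell. EXPA5 (AT3G29030), known as a growth gene under brassinosteroid control, had the largest fall of the 10, from 83.7, 76.7 and 52.0 CPM to 15.0, 10.01 and 12.5 CPM. Its log2 fold change was -2.50 ± 0.22 (edgeR adjusted p = 2.2e-05), and 0.605% of tested genes had a value as low or lower. EXPA15 (AT2G03090), a low member, went from 7.23, 6.18 and 4.69 CPM to 1.06, 0.953 and 1.42 CPM (log2 fold change -2.39 ± 0.25, edgeR adjusted p = 6.3e-05). All of its high light libraries held few counts, 23, 22 and 31. EXPA8 (AT2G40610), which with EXPA1 is a known target of the growth factor HBI1, went from 44.4, 20.0 and 18.5 CPM to 8.18, 10.9 and 5.79 CPM. High CO2 replicate 1 stood above the other 2 libraries of its group, and the groups still did not overlap (log2 fold change -1.73 ± 0.36, edgeR adjusted p = 0.00324).

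Among the other set of relatives, EXPA6 (AT2G28950) fell most. It had 106.6, 84.8 and 53.5 CPM in high CO2 and 16.7, 18.6 and 11.7 CPM in high light (log2 fold change -2.38 ± 0.27, edgeR adjusted p = 1.0e-04). The lowest high CO2 library was above the highest high light library by a wide margin. EXPA3 (AT2G37640) went from 23.7, 19.8 and 14.1 CPM to 9.52, 7.15 and 5.42 CPM (log2 fold change -1.39 ± 0.25, edgeR adjusted p = 0.00135). EXPA4 (AT2G39700) had the smallest called fall of the 8. Its levels were 48.7, 48.6 and 33.5 CPM in high CO2 and 22.3, 17.98 and 25.9 CPM in high light (log2 fold change -0.98 ± 0.19, edgeR adjusted p = 0.00207). EXPA11 (AT1G20190), apart from both sets in sequence, went from 38.2, 29.0 and 25.4 CPM to 11.2, 13.7 and 6.30 CPM (log2 fold change -1.57 ± 0.27, edgeR adjusted p = 0.00119).

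EXPA16 (AT3G55500) was the 1 member that rose. It had 6.52, 4.002 and 5.57 CPM in high CO2 (138, 90 and 107 counts) and 17.8, 11.2 and 14.6 CPM in high light (385, 258 and 318 counts). Every high light library was above every high CO2 library. The log2 fold change was 1.44 ± 0.23 (95% interval 0.91 to 1.96, edgeR adjusted p = 7.2e-04), a 2.71-fold rise, and 86.0% of tested genes had a value as low or lower. Without replicate 3 of both groups the counts of calls were again 8 fallen and 1 risen, with log2 fold changes of -1.76 for EXPA1, -2.60 for EXPA5 and 1.54 for EXPA16. The 9 called members were called in the same direction under each of the 14 other settings tried.

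The members tended to be high in the same library in high CO2, and less so in high light. In high CO2 all 10 members were above their group mean of log2 CPM in replicate 1, 6 in replicate 2 and 1 in replicate 3. In high light 9, 5 and 4 members were above it in replicates 1, 2 and 3. There EXPA4 and EXPA15 were highest in replicate 3. The same shares over all tested genes were not computed, so this cannot be called a trait of the members.

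Within the closest pairs the balance of the transcripts shifted. The ratio of EXPA16 to EXPA4, on levels per kilobase of exon, was 0.160, 0.0988 and 0.199 under high CO2 and 0.956, 0.745 and 0.677 after high light. It was below every high light value in every high CO2 library, and its log2 value changed by 2.42, a 5.35-fold change. This restates the separate results of the genes. With EXPA4 lower and EXPA16 higher in high light, each without overlap, their ratio could not overlap either. The ratio of EXPA10 to EXPA1 was 0.142, 0.222 and 0.167 before and 1.01, 0.554 and 0.487 after the shift. Again the groups did not overlap, and the log2 ratio changed by 1.90, a 3.73-fold change. In high light replicate 1 the levels of EXPA10 and EXPA1 were nearly equal per kilobase. For each of the 2 pairs tested the exact two-sided permutation test gave p = 0.1 (0.1 also when adjusted over the 2 pairs), the smallest that 3 against 3 libraries allow, so the threshold could not be reached. Leaving out each library in turn, an alternative chosen after seeing the data, gave changes of 2.13 to 2.64 for EXPA16 over EXPA4 and 1.58 to 2.11 for EXPA10 over EXPA1.

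**Figure D2:**
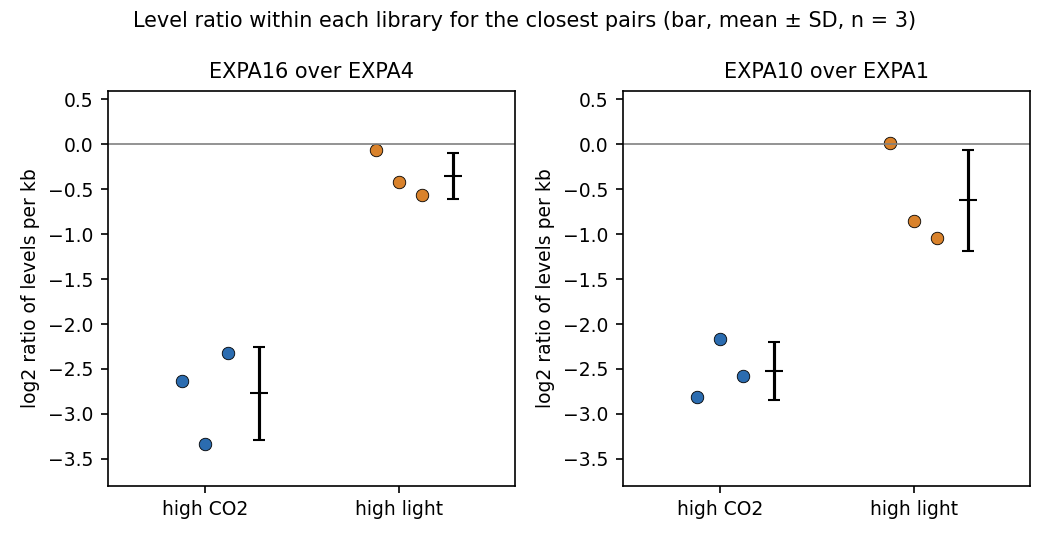
Log2 ratio of levels per kilobase of exon (y axis) within each library for EXPA16 over EXPA4 and EXPA10 over EXPA1. Points are libraries in the order of replicates 1 to 3, bars are mean ± SD (n = 3), and the grey line marks equal levels. In both panels the high light libraries lie above all high CO2 libraries.

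Levels can be compared between genes only per length. In high CO2 EXPA1 led with 142 ± 60.2 CPM per kb of exon (SD, n = 3), above every library of the next genes, EXPA6 (51.3 ± 16.8) and EXPA5 (49.6 ± 11.7), which overlapped each other. EXPA4, EXPA10, EXPA11 and EXPA8 followed at 29.1 ± 5.81, 24.2 ± 7.75, 23.0 ± 4.93 and 20.9 ± 11.0 CPM per kb, each overlapping its neighbour. EXPA3 (10.8 ± 2.71) lay below all of these, and EXPA16 (4.29 ± 1.02) and EXPA15 (4.21 ± 0.892) lay lowest and overlapped. In high light each gene overlapped its neighbour in the order EXPA1 (40.9 ± 9.82), EXPA10 (28.8 ± 15.3), EXPA4 (14.7 ± 2.63), EXPA16 (11.6 ± 2.64), EXPA6 (9.85 ± 2.25), EXPA5 (8.77 ± 1.76), EXPA11 (7.75 ± 2.82), EXPA8 (6.26 ± 1.94) and EXPA3 (4.13 ± 1.15). Only EXPA15, at 0.800 ± 0.172 CPM per kb, was apart from the gene above it.

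The summed level of the 10 transcripts was 482, 347 and 248 CPM per kb in high CO2 and 160.2, 138 and 102 CPM per kb in high light, a 2.69-fold lower mean. All high light libraries lay below all high CO2 libraries. EXPA1 made up 38.7% ± 3.98 of the sum in high CO2 and 30.6% ± 3.92 in high light (SD, n = 3). The share of EXPA10 was 6.17%, 7.96% and 6.19% under high CO2 and 28.1%, 19.5% and 14.2% after high light. The share of EXPA16 was 1.08%, 0.923% and 1.79% before and 8.88%, 6.47% and 11.4% after the shift. EXPA5 and EXPA6 went the other way, from 14.1% ± 1.74 to 6.73% ± 1.74 and from 14.3% ± 0.963 to 7.40% ± 0.968. These shares are a description with no test.

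**Figure D3:**
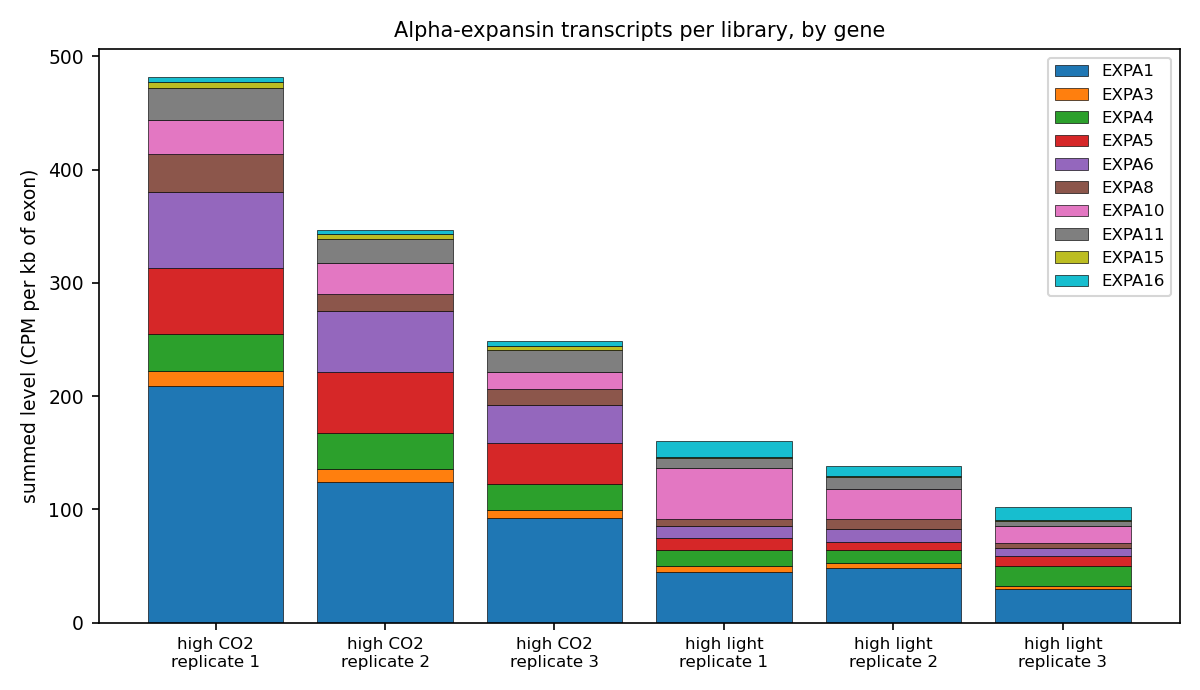
Summed level of the 10 alpha-expansin transcripts in each library in CPM per kb of exon (y axis), stacked by gene. The bars are 248 to 482 in high CO2 and 102 to 160.2 in high light, where EXPA10 and EXPA16 take larger parts.

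The rest of the expansin family was counted next. Of the 16 other alpha-expansins 8 had no count in any library and 4 passed the filter, of which 2 fell and 0 rose (median log2 fold change -0.63). The share called among all tested genes was 60.8%. EXPA13 (AT3G03220) went from 13.0, 12.2 and 9.69 CPM to 6.47, 5.59 and 4.27 CPM (log2 fold change -1.09 ± 0.19, edgeR adjusted p = 0.00126). EXPA9 (AT5G02260) went from 8.41, 8.05 and 5.99 CPM to 5.82, 4.98 and 4.69 CPM (log2 fold change -0.54 ± 0.18, edgeR adjusted p = 0.0308), with no overlap. EXPA9 was not called with DESeq2 (adjusted p = 0.0603), nor without high CO2 replicate 1 or 2 or high light replicate 2 or 3 (edgeR adjusted p = 0.118, 0.126, 0.0810 and 0.0969). EXPA7, a gene of root hairs, was too low for the filter, at 0 counts in every high CO2 library and 12, 2 and 5 counts after high light. It was 6.24-fold higher than a floor of 3 counts over the high CO2 group, and 3.46-fold higher without high light replicate 1. The high light counts were taken without error, so these folds are not lower bounds. EXPA7 is named because it was called when no filter was used (edgeR adjusted p = 0.0114) and by DESeq2 (adjusted p = 0.00539), which was seen in the data.

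Of 10 beta-expansins and expansin-like genes 5 were tested, 4 fell and 1 rose, where 60.8% of all tested genes were called. The median log2 fold change was -1.61. The beta-expansins EXPB1 (AT2G20750) and EXPB3 (AT4G28250), the branch best known from grass pollen allergens, both fell. EXPB1 had 12.3, 9.52 and 7.55 CPM in high CO2 and 2.08, 1.52 and 1.84 CPM in high light (log2 fold change -2.43 ± 0.23, edgeR adjusted p = 3.6e-05). EXPB3 had 28.8, 25.4 and 32.2 CPM in high CO2 and 5.36, 3.597 and 7.40 CPM in high light (log2 fold change -2.40 ± 0.24, edgeR adjusted p = 4.9e-05). The most abundant of this list per length, EXLB1 (AT4G17030), an expansin-like gene, fell from 20.8 ± 3.31 to 8.91 ± 1.02 CPM per kb (log2 fold change -1.23 ± 0.16, edgeR adjusted p = 2.3e-04). EXLA1 (AT3G45970), also expansin-like, rose from 3.26, 2.58 and 1.61 CPM to 7.16, 9.71 and 3.22 CPM, and its lowest high light library lay just under the highest high CO2 library (log2 fold change 1.42 ± 0.40, edgeR adjusted p = 0.0142). EXLA1 was not called without high light replicate 2 (log2 fold change 1.06, edgeR adjusted p = 0.0601).

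**Figure D4:**
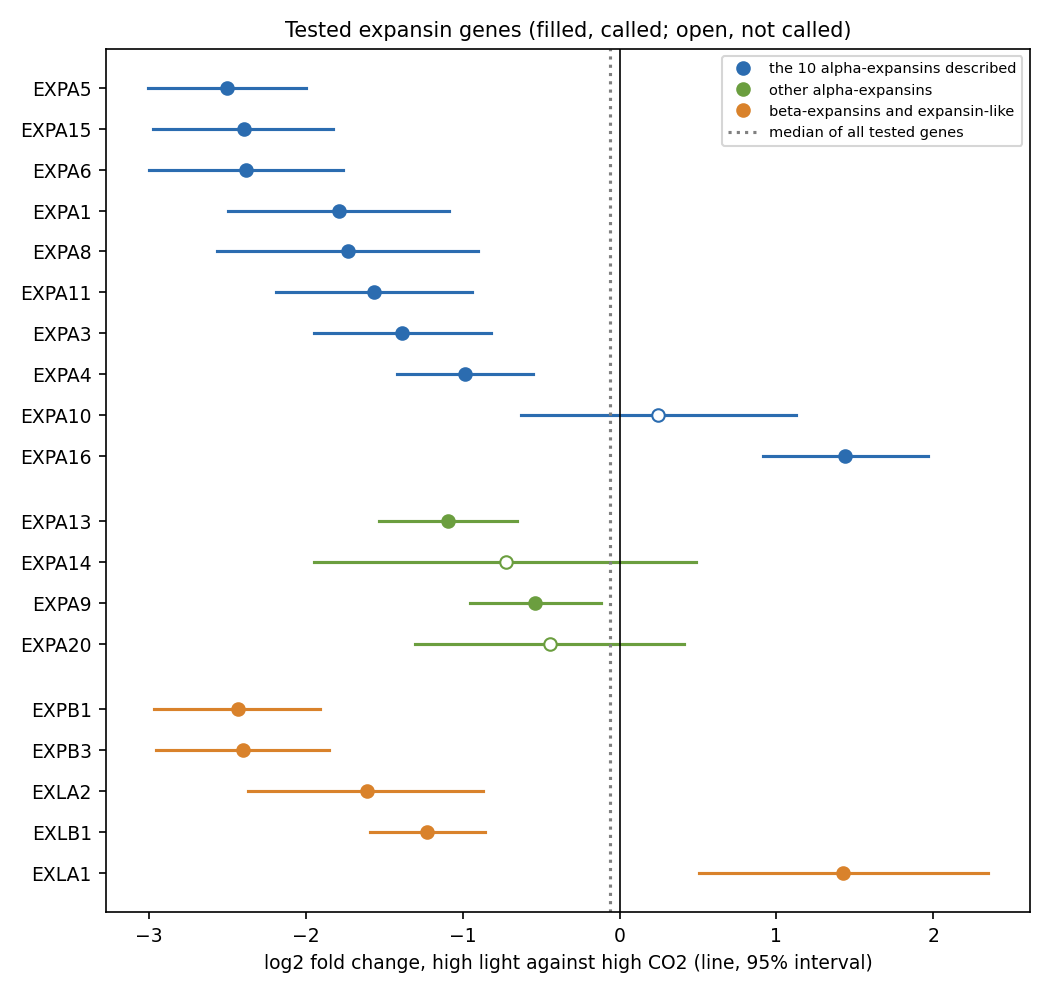
Log2 fold change of high light against high CO2 (x axis) with its 95% interval for the 19 tested expansin genes, in 3 groups. Filled points are called and open points are not. EXPA16 and EXLA1 lie to the right of 0 with their whole interval.

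Proton pumps of the plasma membrane acidify the wall in which expansins act. Of 11 plasma membrane H+-ATPase genes 8 were tested, 4 fell and 0 rose, where 60.8% of all tested genes were called; the median log2 fold change was -0.60. With upper-quartile factors 6 fell. AHA11 (AT5G62670) went from 106.1, 112 and 89.4 CPM to 44.9, 48.1 and 32.03 CPM, without overlap (log2 fold change -1.30 ± 0.18, edgeR adjusted p = 2.9e-04). The log2 fold change was -1.20 ± 0.19 for AHA8, -0.52 ± 0.14 for AHA3 and -0.67 ± 0.19 for AHA5 (adjusted p of 6.9e-04, 0.0103 and 0.0127 in edgeR). AHA3 and AHA5 were not called without high CO2 replicate 2 (edgeR adjusted p = 0.0666 and 0.0647) or without replicate 3 of both groups (0.0663 and 0.0884), and AHA5 was also not called without high CO2 replicate 3 (0.0514). AHA10 (AT1G17260), named after its values were seen, had 46, 58 and 128 counts before and 17, 37 and 53 counts after the shift, with overlap, and was not called (log2 fold change -1.23 ± 0.51, edgeR adjusted p = 0.0633). AHA10 was called as lower with upper-quartile factors (edgeR adjusted p = 0.0292), with DESeq2 (0.0356) and without high CO2 replicate 1 (0.0370) or high light replicate 3 (0.0421). It was also called as lower with the replicate number as a block (edgeR adjusted p = 0.00205). AHA1 and AHA2, known as the main pumps of the plant and named after their values were seen, were not called. In these leaves AHA3, called as lower, was more abundant per length than AHA2. Its levels were 90.3 ± 3.02 CPM per kb in high CO2 and 63.1 ± 6.73 in high light (SD, n = 3). AHA2 had 57.4 ± 7.70 and 50.4 ± 1.23 CPM per kb. AHA1 had 512, 541 and 524 CPM in high CO2 and 505, 565 and 595 CPM in high light (log2 fold change 0.08, 95% interval -0.23 to 0.39, edgeR adjusted p = 0.629). The sign of the AHA1 value was negative with upper-quartile scaling (-0.19). AHA2 had a log2 fold change of -0.19 with an interval from -0.51 to 0.14 (edgeR adjusted p = 0.285), and was called as lower with upper-quartile scaling (edgeR adjusted p = 0.0214).

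Of 11 regulators of cell growth known to act on or beside expansin genes 10 were tested, 7 fell and 2 rose. Of all tested genes 60.8% were called, 30.4% as lower and 30.4% as higher. The median log2 fold change of the regulators was -0.95. The list holds both promoters and inhibitors of growth, so its counts and median give no direction for growth. PRE1 (AT5G39860), a small helix-loop-helix protein that promotes elongation, fell most, from 127, 72 and 87 counts to 9, 6 and 7 counts (log2 fold change -3.76 ± 0.35, edgeR adjusted p = 2.7e-05). HBI1 (AT2G18300), the activator of EXPA1 and EXPA8 that PRE proteins release from inhibition, had 46.6, 38.8 and 31.4 CPM in high CO2 and 12.8, 15.0 and 7.72 CPM in high light. Its groups did not overlap (log2 fold change -1.71 ± 0.25, edgeR adjusted p = 4.1e-04). IBH1 (AT2G43060), the inhibitor that binds HBI1, rose from 9.12, 10.9 and 11.7 CPM to 15.0, 14.9 and 15.9 CPM (log2 fold change 0.53 ± 0.14, edgeR adjusted p = 0.00917). PIF4 (AT2G43010), a phytochrome-interacting factor and the most abundant of the list per length, fell from 96.3, 94.5 and 86.5 CPM to 48.2, 49.01 and 38.4 CPM (log2 fold change -1.03 ± 0.14, edgeR adjusted p = 2.4e-04). ARF7 (AT5G20730), an auxin response factor, rose with a log2 fold change of 0.55 ± 0.16 (edgeR adjusted p = 0.0167). The other falls, named after their values were seen, were ARF19, PRE5, RGA and GAI. Their log2 fold changes were -1.32 ± 0.22, -1.24 ± 0.36, -0.86 ± 0.12 and -0.79 ± 0.15 (edgeR adjusted p = 9.7e-04, 0.0140, 3.3e-04 and 0.00211). PRE5 was not called with DESeq2 (adjusted p = 0.0712), nor without high CO2 replicate 1 or 2 or high light replicate 3. With upper-quartile scaling, which moved the median of all tested genes from -0.06 to -0.33, IBH1 and ARF7 were not called (edgeR adjusted p = 0.112 and 0.145). ARF7 was also not called without high CO2 replicate 1 or 2 or high light replicate 2 or 3 (edgeR adjusted p = 0.0570, 0.0741, 0.0527 and 0.0576).

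**Figure D5:**
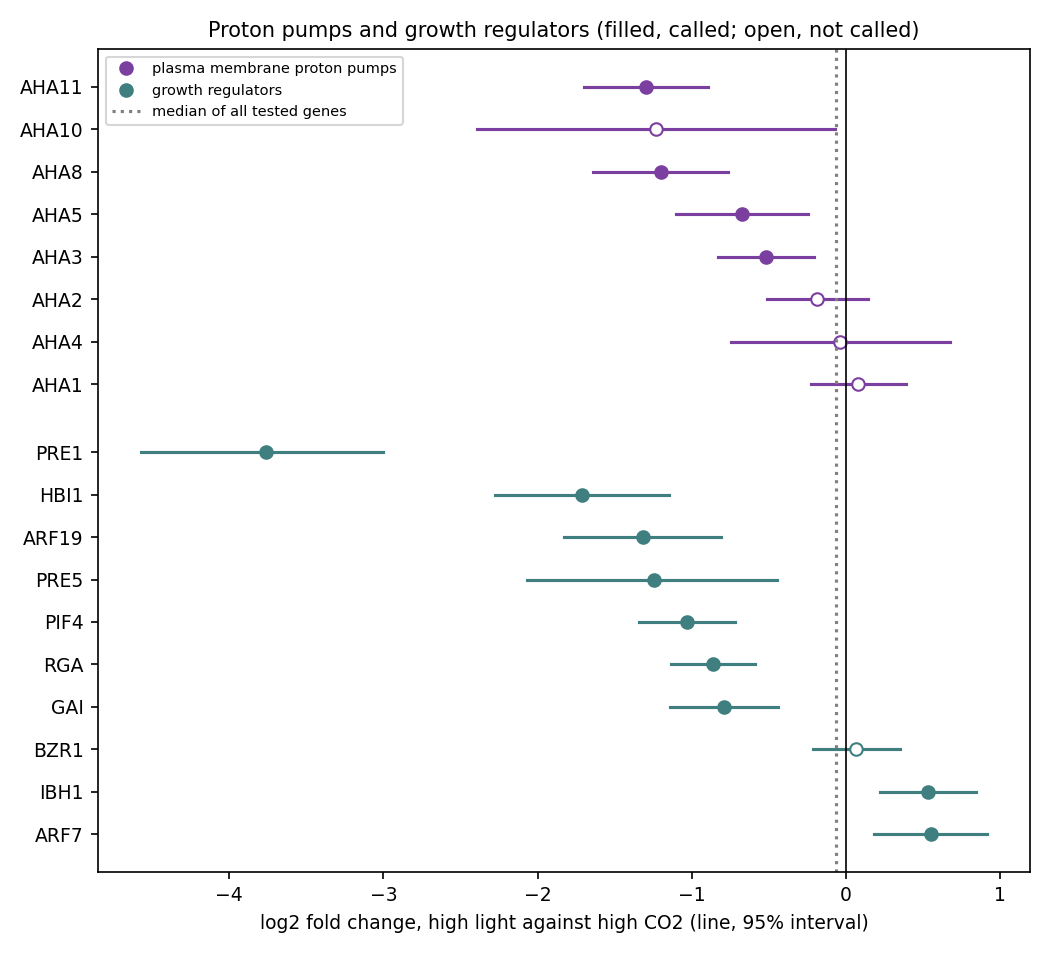
Log2 fold change of high light against high CO2 (x axis) with its 95% interval for 8 proton pump genes and 10 growth regulator genes. Filled points are called and open points are not. PRE1 lies farthest to the left, and the interval of AHA1 spans 0.

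Markers of mesophyll, epidermis and vascular tissue were mostly lower in high light, while guard cell markers went in both directions; the part of any of them in the results was not tested. Over all tested genes 60.8% were called, and 30.4% were called as lower. All 5 epidermal markers fell, with summed levels of 1315 to 1526 CPM in high CO2 and 693 to 1045.0 CPM in high light. Of 7 vascular markers 5 fell and 0 rose (305 to 326 CPM against 198 to 239 CPM). Of 9 guard cell markers 3 rose and 3 fell (2573 to 2881 CPM against 1847 to 2409 CPM). Most of that sum is TGG1, with means of 2637 and 2098 CPM, which was not called (edgeR adjusted p = 0.107). All 5 mesophyll markers fell, within the ranges given above. Of 4 markers of meristem and flower, WUS and CLV3 had no count, STM had 2 counts in all and AG, at most 30 counts in a library, fell.

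The genes whose profile was most like the mean profile of the 10 members over the 6 libraries were AT3G52110, AT1G22700, HTA2 (AT4G27230), AT5G12980 and PPD1 (AT4G15510), with Pearson's r from 0.997 to 0.999. This is a description: 1078 of 13911 genes compared had r of at least 0.95, and the 6 points share the 2 conditions.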

How the data were processed

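The authors deposited raw read counts for each gene in 1 table, without normalization, with 1 column per library for 6 libraries. The submitters' processing notes name Trim Galore 0.3.3 for trimming, TopHat2 2.1.0 for alignment to TAIR10 and featureCounts of Subread 1.4.6 for counting. How strand and multiply mapped reads were handled is not given in the sources used here. Per the labels' protocols, libraries were made with a stranded mRNA kit. After removal of 2 leftover header lines 33602 genes remained, 32835 of them named in the TAIR10.1 annotation, which gave symbols, exon lengths and the printed sequences. TAIR10.1 keeps the nuclear chromosomes of TAIR10, but its gene models may differ from those used for counting, which affects levels per kilobase.

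Groups came from the sample titles. Counts were tested with edgeR 4.0.16 in R 4.3.3 (filterByExpr at a minimum of 10 counts, TMM scaling, robust glmQLFit and glmQLFTest, 4 residual degrees of freedom, two-sided), after the code was tested on simulated data. The filter kept 18504 genes. Genes were called at a Benjamini-Hochberg adjusted p under 0.05 over all of them. The standard error is the log2 fold change divided by the square root of F. Alternatives were other scalings, no filter, DESeq2 1.42.0, limma-voom (limma 3.58.1), a replicate term and left-out libraries. Coding sequences were aligned with Biopython 1.88 and searched with BLAST 2.17.0. Members and lists were chosen with earlier results of these data known. Named were all 10 members, each called gene of a comparison list or, above 4 calls, the 2 largest rises, the 2 largest falls and the most abundant gene, and the 5 most similar profiles. The 95% intervals of log2 fold changes come from the fit and include the spread between libraries. The floor of 3 counts used for EXPA7 covers counting error in the high CO2 group only.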

Additional observations from a re-analysis of the deposited data

How the results depend on the processing

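The 8 falls and the rise among the 10 alpha-expansins were called in every one of the 14 alternatives. EXPA10 was called in none of them, and its log2 fold change was -0.017 with upper-quartile scaling and -0.23 to 0.57 when 1 library was left out (-0.23 without high light replicate 1). Scaling changed the sign for AHA1 (-0.19) and BZR1 (-0.20) with upper-quartile factors. AHA4, which was never called, was at 0.0012 with DESeq2 size factors, 0.0021 with library totals, 0.0028 with DESeq2, 0.10 without replicate 3 of both groups and -0.26 to 0.31 with 1 library left out. Fallen genes among the other alpha-expansins numbered 1 with DESeq2 and 1 to 2 with 1 library left out, and 1 rose with no filter and 1 with DESeq2, where more genes enter the test. With 1 library left out, risen genes numbered 0 to 1 among beta-expansins and expansin-like genes and 1 to 2 among growth regulators (0 with upper-quartile factors), and fallen proton pumps numbered 2 to 5 (2 without replicate 3 of both groups). The cause of these changes was not tested. Replicate numbers are shared between the groups. The deviations of same-numbered libraries from their group means correlated at 0.22, -0.02 and 0.41. Those of unlike-numbered libraries correlated at -0.41 to 0.24. The numbers were not taken as pairs, and these values do not settle whether they are. With the replicate number as a block 8 members fell and 1 rose, EXPA10 had a log2 fold change of 0.17 (edgeR adjusted p = 0.353), and over all genes 5880 rose and 6071 fell, against 5631 and 5616. The 12 untested other alpha-expansins had at most 31 counts over all libraries, and 8 of them had 0. Of those 8, EXPA22 with EXPA26 (97.9% identity) and EXPA23 with EXPA25 (97.1%) were copies in the search at 95% identity. Their reads may map to more than 1 place, and how such reads were handled is not given. Low depth and lack of expression cannot be told apart for the 12, nor loss of such reads for these copies.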
